A study of Homo sapiens with 6 samples.

Results

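Chromatin accessibility was examined at the genes of the insulin-like growth factor (IGF) binding proteins, IGFBP1 to IGFBP7, and at IGF1, the ligand that they bind. The members were 40 of the 108542 regions in a table of open chromatin from the human beta cell line EndoC-βH3 (hg38). Regions were assigned to these genes by position alone, while the genes were chosen with earlier results of these data known. A region was a promoter region when it overlapped 2 kb on either side of the start site of a protein-coding transcript of 1 of these 8 genes, and 11 regions qualified. It was a distal region when it lay outside all promoters and the nearest protein-coding start site to its midpoint, within 100 kb, was that of 1 of these genes, and 29 regions qualified.

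ATAC-seq, in which a transposase inserts sequencing adapters into open DNA, was performed on 100000 cells per library, with 3 libraries of senescent and 3 of non-senescent cells. Both groups were the same cell line, labelled as wild type, which carries immortalising transgenes and a tamoxifen-inducible Cre recombinase. The senescent group had received 3 weeks of the tamoxifen metabolite 4-OHT (4-hydroxy tamoxifen), which activates the recombinase and excises the transgenes, and the non-senescent group was the untreated control. Excision of the transgenes and exposure to 4-OHT therefore coincided and cannot be told apart. All libraries derive from 1 established line and not from separate donors. The labels do not say whether they came from separate cultures, so the p-values measure only the spread between these libraries, which may be technical. More open cells and more openness per cell cannot be told apart in such bulk libraries.

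For each region the deposited table gives a mean signal (normalised read counts averaged across the libraries) and a fold change between the groups, with the standard error (SE) of that change. It has no values of individual libraries. Neither these nor the overlap of the groups can therefore be shown, and a fold change carries its SE or 95% interval in their place. A positive log2 fold change was read as higher accessibility in senescent cells. The table does not name the numerator, and this reading rests on how the study labels its changes and on the proliferation gene MKI67, whose strongest promoter region had a log2 fold change of -0.53 (SE 0.097). A region was called when its adjusted p-value was under 0.05 and its fold change over 1.5, a limit of 0.58 on the log2 scale. The adjusted p-values are those of the DESeq2 model fitted to the whole table.

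The labelled cell type was checked at the promoters of marker genes. All 11 beta cell or endocrine markers, INS, PDX1 and NKX6-1 among them, had a promoter region, with a highest mean signal per gene of 405 to 7894. Of 8 fibroblast or stellate cell markers, 5 had a promoter region and the highest signal was 142, at COL1A1. COL3A1, PDGFRB and DCN had none. Of 4 endothelial markers 2 had a region, and of 3 leukocyte markers only CD68 did. Of 3 duct or acinar markers, PRSS1 had none, while KRT19 and CPA1 had strong regions, with signals of 1059 and 2101. All 4 other islet hormone genes had a region, with signals of 66.3 to 740.3. The strongest promoter regions of several of these genes moved with senescence. Those of GHRL (-1.16, SE 0.077) and SST (-1.08, SE 0.16) fell most surely on the log2 scale, followed by KRT19 (-0.37, SE 0.082), PDGFRA (-0.80, SE 0.19), KDR (-0.71, SE 0.21) and CPA1 (-0.19, SE 0.061). Those of INS (1.11, SE 0.037), CD68 (0.29, SE 0.085), SLC30A8 (0.28, SE 0.088) and LUM (1.22, SE 0.45) rose. The strongest promoter regions of the other beta cell or endocrine markers had adjusted p-values of at least 0.0759 by DESeq2. The part of these changes in the results below was not tested.

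IGF binding proteins are secreted carriers that hold IGF1 and IGF2 in the extracellular fluid, prolong their lifetime and limit their access to the IGF1 receptor. Proteases release the growth factors by cutting the carriers. IGFBP3 and IGFBP5 can bind a further subunit to form the large complex that circulates in blood. IGFBP1 is made by the liver and held down by insulin through FOXO factors, IGFBP6 prefers IGF2, and IGFBP7 binds IGFs weakly. Several of these proteins are secreted by senescent cells of other types, and the study's list of senescence-associated secretory factors holds IGF1, IGFBP1, IGFBP2, IGFBP3, IGFBP4 and IGFBP6. At the level of mRNA, however, the study found no increase of its secretory signature, or of single secretory factors, when EndoC-βH3 cells became senescent.

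The genes lie in 2 pairs and 4 single loci. IGFBP2 and IGFBP5 stand tail to tail on chromosome 2, with a gap of 7.67 kb between their ends, and together they held 22 of the 40 regions. IGFBP1 and IGFBP3 stand tail to tail on chromosome 7 with a gap of 18.6 kb. IGFBP7 lies on chromosome 4, IGFBP4 on chromosome 17, and IGFBP6 and IGF1 lie far apart on chromosome 12.

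The sequences below are 5 of the 7 called member regions, shown because the changes described next were measured in them. They are the 300 bases around the midpoint of a region, or the whole region where it is shorter, read from the plus strand of hg38. Capitals mark matches on either strand to the short motifs AP-1 (TGANTCA), STAT (TTCNNNGAA) and FOXO (TGTTTAC), in the windows that hold one. The first is the called promoter region of IGFBP2 (chr2:216633114-216633413), the next pair are the distal regions of IGFBP3 that rose (chr7:45978195-45978494 and chr7:46009468-46009765), the fourth is the distal region of IGFBP7 that fell (chr4:57046514-57046791), and the last is the distal region of IGF1 (chr12:102394094-102394393).
IGFBP2 promoter region: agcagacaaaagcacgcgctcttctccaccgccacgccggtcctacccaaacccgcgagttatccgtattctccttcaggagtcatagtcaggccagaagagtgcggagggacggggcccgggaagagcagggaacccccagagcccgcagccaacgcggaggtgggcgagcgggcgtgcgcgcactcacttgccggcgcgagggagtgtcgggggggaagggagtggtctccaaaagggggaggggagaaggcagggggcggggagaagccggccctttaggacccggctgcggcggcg
IGFBP3 distal region, -56.5 kb: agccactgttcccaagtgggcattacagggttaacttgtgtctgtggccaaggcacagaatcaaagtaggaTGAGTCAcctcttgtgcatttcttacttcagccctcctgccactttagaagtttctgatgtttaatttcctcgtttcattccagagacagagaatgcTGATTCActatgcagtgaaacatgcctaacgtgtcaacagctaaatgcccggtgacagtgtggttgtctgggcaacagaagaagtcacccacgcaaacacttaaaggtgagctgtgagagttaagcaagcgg
IGFBP3 distal region, -87.7 kb: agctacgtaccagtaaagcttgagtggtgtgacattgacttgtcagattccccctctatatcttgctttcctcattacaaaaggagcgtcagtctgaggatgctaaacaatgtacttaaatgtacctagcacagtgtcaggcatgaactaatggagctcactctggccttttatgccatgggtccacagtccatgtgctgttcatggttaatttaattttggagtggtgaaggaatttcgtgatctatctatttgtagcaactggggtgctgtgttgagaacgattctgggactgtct
IGFBP7 distal region, +63.7 kb: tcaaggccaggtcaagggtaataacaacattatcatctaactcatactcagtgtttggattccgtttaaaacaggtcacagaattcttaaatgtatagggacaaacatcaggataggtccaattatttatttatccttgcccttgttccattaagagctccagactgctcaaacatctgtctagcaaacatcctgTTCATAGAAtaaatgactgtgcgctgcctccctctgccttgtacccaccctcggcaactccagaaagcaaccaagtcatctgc
IGF1 distal region, +84.4 kb: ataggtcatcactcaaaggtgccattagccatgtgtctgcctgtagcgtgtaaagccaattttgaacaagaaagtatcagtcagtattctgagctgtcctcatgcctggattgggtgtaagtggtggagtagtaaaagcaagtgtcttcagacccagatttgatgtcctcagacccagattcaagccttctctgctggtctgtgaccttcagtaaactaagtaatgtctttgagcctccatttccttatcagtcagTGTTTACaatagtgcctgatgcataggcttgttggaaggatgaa

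The first comparison asked whether the promoters of these genes opened or closed upon senescence. Of the 11 promoter regions, 1 was called lower, at IGFBP2, against 9.04% of the 20094 promoter regions of all protein-coding genes. By DESeq2, 0 were called higher, against 3.56% of all promoter regions, and 1 was higher at an unadjusted p-value under 0.05. By the adjusted p-value alone, 3 were lower, at IGFBP1, IGFBP2 and IGFBP6, against 34.7% of all promoter regions, and 1 was higher, at IGFBP3, against 10.2%. The members' shares were close to these. The log2 fold change was below 0 in 9 of the 11 regions, and in 13935 of the 20094 promoter regions of all protein-coding genes. The members' median was -0.30 against -0.13 over all promoter regions.

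**Figure D1:**
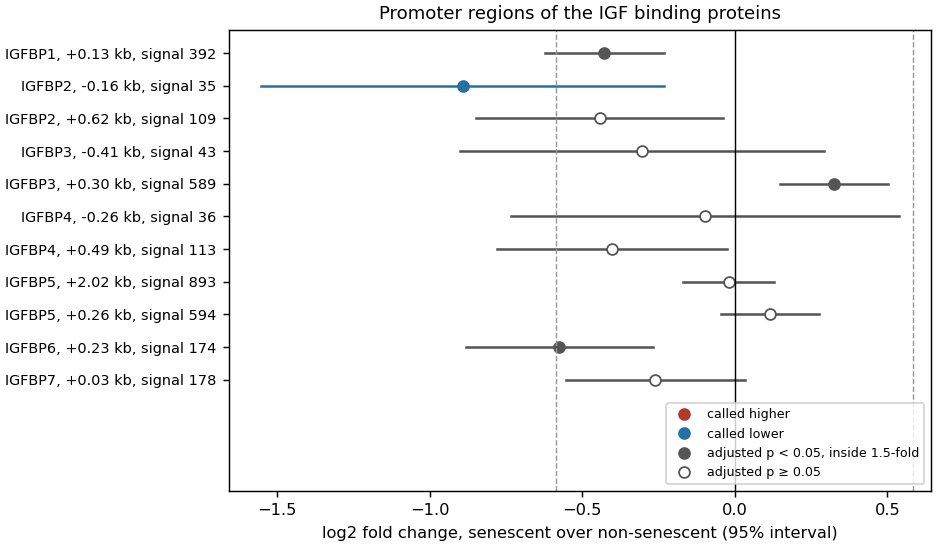
Log2 fold change (x axis, senescent over non-senescent) of the 11 promoter regions, with 95% intervals and the position relative to the nearest start site and the mean signal of each. Dashed lines mark the 1.5-fold limit; only the IGFBP2 region of signal 35.0 was called, and the stronger regions have narrower intervals.

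IGFBP1, the binding protein that insulin holds down in liver, had 1 promoter region and no distal region. The promoter region (chr7:45888222-45889042, untranslated exon sequence at the midpoint) had a mean signal of 392. Its log2 fold change was -0.43 (SE 0.099, adjusted p 0.000101), and the 95% interval from -0.62 to -0.23 reached just past the 1.5-fold limit. The region thus fell, with an estimate inside the limit, but a fall of 1.5-fold was not excluded.

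IGFBP2, a carrier abundant in fetal life and the nervous system, had 2 promoter regions with fold changes below 0. Its first annotated start site had no region on it, and the nearest began 238 bp downstream. That region (chr2:216633066-216633461, intron), whose midpoint is 157 bp before a further start site, fell by 0.89 on the log2 scale (SE 0.34, adjusted p 0.022) at a mean signal of only 35.0. The other promoter region (chr2:216633656-216634426, intron) was stronger, at 109, with -0.44 (SE 0.21, adjusted p 0.0714). The call at IGFBP2 therefore stood on the weaker of its 2 promoter regions. With the trend of the fold change on GC content removed it was no longer past the threshold, at -0.75 (adjusted p 0.0596).

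IGFBP3, the main carrier of IGFs in blood, was the single member with a promoter region that rose by the adjusted p-value. That region (chr7:45920446-45921499, coding exon at the midpoint) had a mean signal of 589 and rose by 0.32 on the log2 scale (SE 0.091, adjusted p 0.0014). Its 95% interval, 0.15 to 0.50, lay inside the 1.5-fold limit. A weak region at a downstream start site (chr7:45917726-45917954, intron, mean signal 43.0) had -0.30 (SE 0.30, adjusted p 0.44).

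IGFBP4, which the protease PAPP-A cuts to free IGF, had 2 promoter regions, neither past the test. The region before the start site (chr17:40442976-40443416, mean signal 36.3) had -0.10 on the log2 scale (SE 0.32, adjusted p 0.834), and the one behind it (chr17:40443729-40444150, coding exon, mean signal 113) had -0.40 (SE 0.19, adjusted p 0.0772). For the former the interval ran from -0.73 to 0.54 and for the latter from -0.78 to -0.03. Both include a change of 1.5-fold downward.

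IGFBP5, another substrate of PAPP-A, had the highest promoter signals per kb among these genes, and neither of its 2 promoter regions passed the test. Its regions at chr2:216692128-216693415 (intron) and chr2:216694109-216694955 (coding exon, also within the antisense gene DIRC3-AS1) had mean signals of 893 and 594. Per kb of region these were 693 and 701, above the 82.4 to 559 of the promoter regions of the other members. Their log2 fold changes were -0.02 (SE 0.076, adjusted p 0.859) and 0.12 (SE 0.082, adjusted p 0.252). The intervals, -0.17 to 0.13 and -0.04 to 0.28, both lay inside 1.5-fold in either direction. The nearest region ended 594 bp inside the first start site of the gene. Among genes of all types, a start site of DIRC3-AS1 is the nearest to both midpoints. It lies 1633 bp from that of the intronic region and 2 bp from that of the exonic one. The signal of these regions therefore cannot be assigned to IGFBP5 alone.

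IGFBP6, the carrier that prefers IGF2, had a single region, which covered its first start site (chr12:53097412-53098391, coding exon, mean signal 174). Its log2 fold change was -0.58 (SE 0.16, adjusted p 0.00102), just inside the limit of the call. The promoter sequence of RefSeq (GRCh38.p14), which was found for 6 of the 8 genes, holds 1 match to the FOXO motif (GTAAACA, the reverse complement) inside this region. It is shown in capitals within chr12:53097470-53097498, plus strand, since it is the one FOXO match in a RefSeq promoter of these genes that an accessible region covered.
IGFBP6 site: caatttgggaaGTAAACAgaaactggaaa
In the 300 bp around the midpoint, 3.11% of all promoter regions held this motif and 0 of the 11 member promoters did, since the IGFBP6 match lies nearer the edge of its region.

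IGFBP7, a weak IGF binder that also binds insulin, had 1 promoter region (chr4:57109754-57110957, untranslated exon sequence, mean signal 178). Its log2 fold change was -0.26 (SE 0.15, adjusted p 0.152), with an interval from -0.55 to 0.03. IGF1 itself had 0 promoter regions, although the annotation gives it 5 start sites of coding transcripts. One of its RefSeq promoters also holds a FOXO match, with no region on it. For the ligand's gene, only a weak distal region was in the table.

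The member promoters were weak for promoters. The median of their mean signals was 174, against 506 over all promoter regions, and 8 of the 11 lay below that median. The median SE was 0.16, against 0.095. The GC content of 9 of the 11 lay above the median of all promoter regions, with a median of 66.9% against 62.2%. Both properties move with the fold change in the whole table, where regions with a mean signal under 50 had a median log2 fold change of 0.29 and those from 500 to 1000 had -0.12. With the trend on mean signal removed, IGFBP2 stayed lower at -1.12, and with that on GC content removed IGFBP1 had -0.28 and IGFBP6 -0.43.

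**Figure D2:**
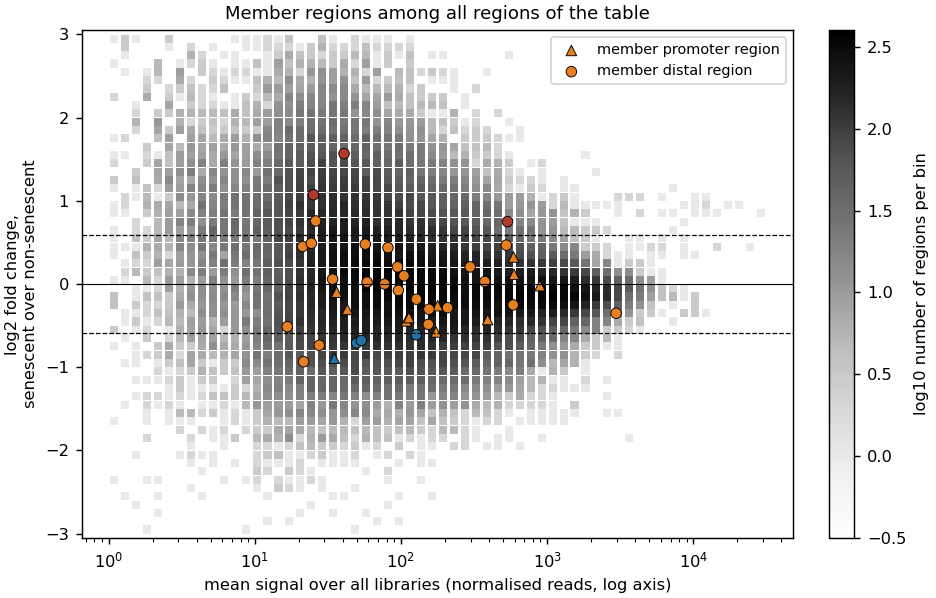
Log2 fold change (y axis) against mean signal (x axis, log scale) for all regions between -3 and 3 (grey squares, shaded by number) and the 40 member regions (triangles, promoter; circles, distal; red, called higher; blue, called lower; orange, not called). Of the 7 called members, 4 had a mean signal under 50.

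The second comparison asked the same of the distal regions. Of the 29 regions, 3 were called higher, 2 of IGFBP3 and 1 of IGF1, against 18.1% of the 88448 distal regions in the table. A further 3 were called lower, 2 of IGFBP2 and 1 of IGFBP7, against 10.6%. By the adjusted p-value alone 4 were higher, against 23.4%, and 6 were lower, against 18.3%. The median log2 fold change was 0.02, against 0.08 over all distal regions. The members' share was below that of all distal regions for higher calls and close to it for lower ones.

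**Figure D3:**
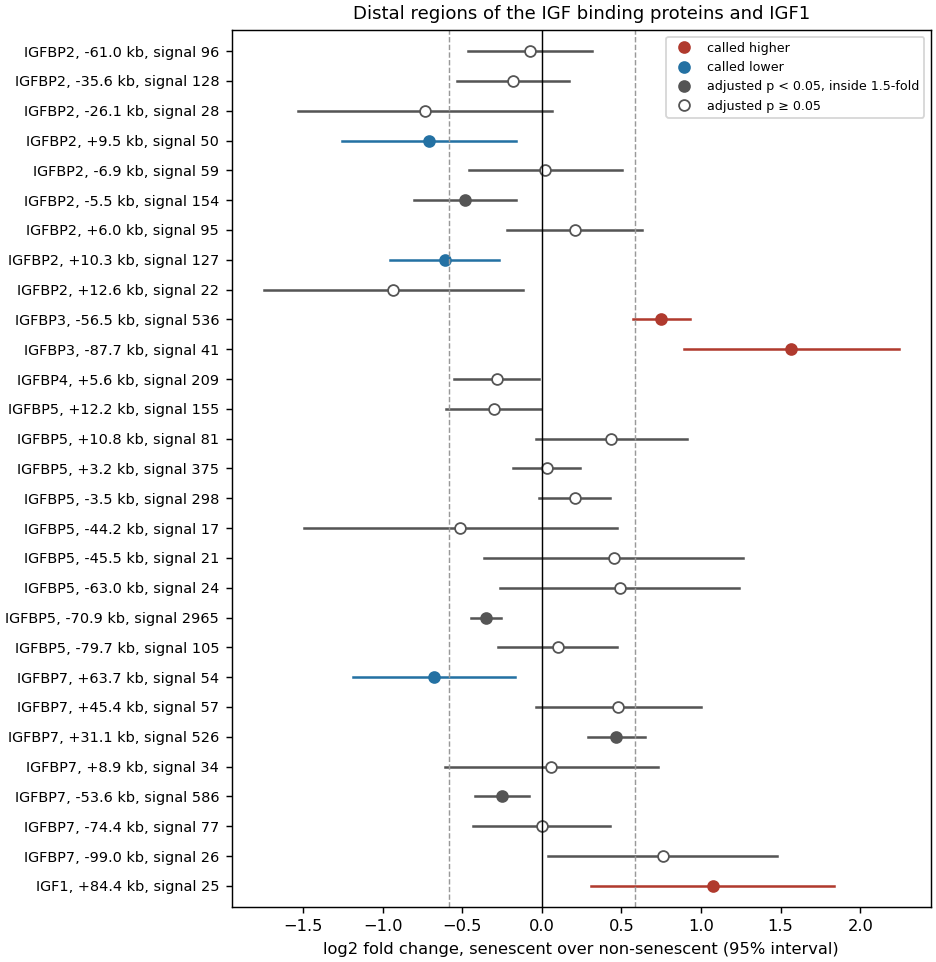
Log2 fold change (x axis, senescent over non-senescent) with 95% interval of the 29 distal regions, labelled by gene, distance of the midpoint from the nearest start site (minus, upstream) and mean signal. The IGFBP3 regions and the IGF1 region are called higher, and 2 IGFBP2 regions and 1 IGFBP7 region lower.

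At IGFBP3 both distal regions rose. The nearer one (chr7:45977998-45978691) lies 56.5 kb upstream in an intron of a long noncoding RNA gene and had a mean signal of 536, higher than in 91.7% of distal regions. Its log2 fold change was 0.75 (SE 0.092, adjusted p 1.2e-14), a 1.68-fold rise and the smallest adjusted p-value among the called members. The farther one (chr7:46009468-46009765, intergenic, 87.7 kb upstream) was weak, with a mean signal of 40.8, and had the largest change of all members, 1.57 (SE 0.34, adjusted p 3.6e-05), or 2.96-fold. In a test of whether the change itself exceeds 1.5-fold the adjusted p-values were 0.614 and 0.0713.

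The nearer window, printed above, holds 2 matches to the AP-1 motif, the site of the FOS and JUN factors, and a match to the hypoxia response core that is not in capitals. The farther one holds none of the motifs sought. The AP-1 motif was found in 4 of the 29 distal member windows and in 11.1% of all distal windows. The other 3 matches lay in regions of IGFBP2 and IGFBP5 that were not called. IGFBP3 is the nearest protein-coding gene to both regions, but start sites of noncoding genes lie nearer, at 8687 and 8838 bp.

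At IGF1 the single region (chr12:102394045-102394442) lies 1431 bp past the 3′ end of the gene and 84.4 kb from the nearest start site of a coding transcript, within an exon of the noncoding gene HELLPAR. Its mean signal was 25.2 and its log2 fold change 1.07 (SE 0.39, adjusted p 0.0166). The printed window holds 1 FOXO match, which 9.43% of distal windows also hold. After removal of the trend on mean signal the rise was not past the threshold, at 0.79 (adjusted p 0.0908).

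At IGFBP2, 7 of the 9 distal regions had a log2 fold change below 0, against 39713 of all 88448 distal regions. The 9 regions had a median of -0.48, against 0.08 over all distal regions, and a range from -0.93 to 0.21. The region at chr2:216642787-216643146, in an intron, was called lower at -0.71 (SE 0.28, adjusted p 0.0281, mean signal 49.8). The region at chr2:216670509-216671501, in the gap between IGFBP2 and IGFBP5, was called lower at -0.61 (SE 0.17, adjusted p 0.00183, mean signal 127). With the trend on GC content removed the latter had -0.48, inside the limit of the call.

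The strongest distal region of IGFBP2 (chr2:216653848-216654367, intron, mean signal 154) had -0.48 (SE 0.16, adjusted p 0.00939), below the 1.5-fold limit. The largest estimate, -0.93, belonged to a region of mean signal 21.6 in the untranslated end of IGFBP5, for which a start site of IGFBP2 is the nearest (chr2:216673233-216673483, SE 0.41, adjusted p 0.0564). The 2 regions of IGFBP2 above 0 had 0.02 and 0.21, with adjusted p-values of 0.951 and 0.464. The regions share a locus and libraries, and are not independent replicates.

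At IGFBP5, 6 of the 9 distal regions had a log2 fold change above 0, against 48735 of all 88448 distal regions. By DESeq2, 0 of the 9 were called, with 2 lower and 0 higher at an unadjusted p-value under 0.05. At an adjusted p-value under 0.05 there was 1, the strongest of all member regions (chr2:216765580-216767325), 70.9 kb upstream in an intron of DIRC3-AS1, with a mean signal of 2965 that exceeded 99.8% of distal regions. Its log2 fold change was -0.35 (SE 0.048, adjusted p 7.1e-12), with an interval of -0.45 to -0.26 inside the limit. A start site of DIRC3-AS1 lies only 1542 bp from its midpoint, so that it cannot be assigned to IGFBP5. The region 3.23 kb behind the start site of IGFBP5 (chr2:216691440-216691700, intron, mean signal 375) had 0.03 (SE 0.11, adjusted p 0.849). It too lies nearer to a start site of DIRC3-AS1, at 2835 bp. The other 7 had adjusted p-values of at least 0.0942, and for 4 of the 9 regions the interval lay inside 1.5-fold.

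**Figure D4:**
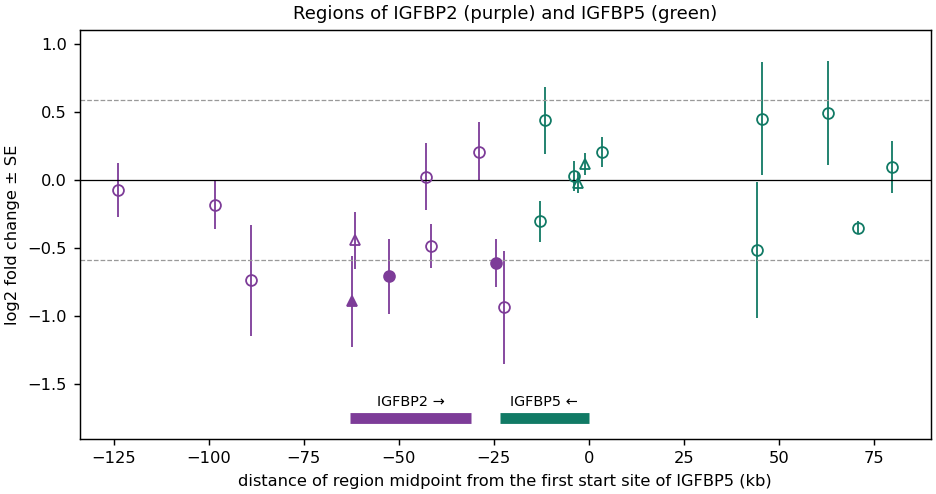
Log2 fold change (y axis, bars are SE) of the 22 regions of IGFBP2 (purple) and IGFBP5 (green) against distance from the first start site of IGFBP5 in kb (triangles, promoter; circles, distal; filled, called; dashed, 1.5-fold limit), with the genes and their direction below. The called regions, all lower, belong to IGFBP2.

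At IGFBP7 the 7 distal regions moved in both directions. The region at chr4:57046514-57046791, in an intron 63.7 kb behind the nearest coding start site, was called lower at -0.68 (SE 0.26, adjusted p 0.0248, mean signal 53.6), and its printed window holds 1 STAT match, as do 13.4% of distal windows. A stronger intronic region 31.1 kb behind the start site (chr4:57078634-57079868, mean signal 526) had 0.47 (SE 0.091, adjusted p 2.6e-06), inside the limit, and passed it at 0.59 with the trend on mean signal removed. The strongest region (chr4:57163620-57164409, mean signal 586), 53.6 kb upstream in an intron of the antisense gene IGFBP7-AS1, had -0.25 (SE 0.086, adjusted p 0.0107). The other 4 regions had log2 fold changes from 0.000256 to 0.76 and did not pass the test.

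At IGFBP4 the single distal region, in an intron 5.59 kb behind the start site (chr17:40448716-40449372, mean signal 209), had -0.28 (SE 0.14, adjusted p 0.082). IGFBP1 and IGFBP6 had no distal region. Over all 40 member regions, 26 were not past an adjusted p-value of 0.05, and for 11 of these the interval excluded a change of 1.5-fold. For the other 15 the interval reached past 1.5-fold.

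The other motifs are the sites of further beta cell and signal-dependent factors. On both strands, matches were found in the 29 distal windows for the homeodomain site TAATTA in 2 (10.1% of all distal windows), the MAF site TGCTGAC in 2 (7.16%), the insulin response core TGTTTTG in 1 (6.76%), the hypoxia response core NACGTG in 9 (16.0%) and the RFX half-site GTTGCCA in 0 (5.07%). In the 11 promoter windows the MAF site and the hypoxia response core each had 1 match. The p53 consensus, allowed 2 mismatches outside its core, was found in 0 member windows and in 0.158% of all windows. No window that matched the insulin response core was called.

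The members were set beside 25 other genes of the IGF system, a list chosen with earlier results of these data known. Of their 34 promoter regions 2 were called higher and 4 lower, with a median log2 fold change of -0.11. Of their 148 distal regions 22 were called higher and 8 lower, with a median of 0.13. Over all promoter regions 3.56% were called higher and 9.04% lower, and over all distal regions 18.1% higher and 10.6% lower. The counts of the list, and those per group and per gene below, are to be read against these shares.

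For the ligand IGF2, which most of the binding proteins also carry, 1 of 9 promoter regions was lower, at -1.19 (SE 0.20, chr11:2140893-2141180), and 2 were higher. Both of the latter are also promoter regions of INS, the insulin gene, with 1.11 (SE 0.037) and 0.59 (SE 0.11), so that they cannot be assigned to IGF2. IGFALS, the gene of the acid-labile subunit that joins IGFBP3 and IGFBP5 in the circulating complex, had 2 promoter regions, of which 0 were called by DESeq2. The stronger (chr16:1794224-1795683) rose by 0.46 on the log2 scale (SE 0.051, adjusted p 6.7e-18), which is below the 1.5-fold limit. The other had -0.22 (SE 0.17, adjusted p 0.288). Both are also promoter regions of SPSB3, so that they cannot be assigned to IGFALS.

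The receptors IGF1R, IGF2R and INSR had 5 promoter regions with 0 calls by DESeq2, 2 being higher at an unadjusted p-value under 0.05, and 48 distal regions of which 10 were higher and 2 lower. IGF1R, through which both IGFs signal, held 39 of these, with 8 higher and 2 lower. The largest rise among those of mean signal 50 or more was at INSR, the insulin receptor, with 2.45 (SE 0.23, adjusted p 1.3e-25) in a region 10.2 kb from the nearest of its coding start sites and far from its promoter region (chr19:7157640-7157995). The largest such rise at IGF1R was 1.56 (SE 0.28, adjusted p 3.6e-07, chr15:98812811-98813196).

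Among the proteases that cut the binding proteins and the inhibitors of these proteases, 8 of 39 distal regions were higher and 2 lower, both of the latter at HTRA1. PAPPA2, a protease of IGFBP3 and IGFBP5, held 5 of the higher ones among its 14 distal regions, the largest of mean signal 50 or more at 1.13 (SE 0.13, adjusted p 6.7e-17). STC2, an inhibitor of PAPP-A, had 1 higher region of 9. The promoter of STC1, a related inhibitor, was lower at -0.68 (SE 0.20, adjusted p 0.00263).

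The proteins related to the IGFBPs by a shared domain had 7 promoter regions, of which 2 were lower and 0 higher. These were CCN3 at -0.72 (SE 0.085, adjusted p 8.4e-16) and CCN1 at -0.62 (SE 0.20, adjusted p 0.0071), matricellular proteins. Of their 46 distal regions 4 were higher and 4 lower. The largest rises were those of CCN3 with 1.47 (SE 0.23, adjusted p 1.4e-09), CCN6 with 1.21 (SE 0.25, adjusted p 1.3e-05) and IGFBPL1 with 1.06 (SE 0.17, adjusted p 2.3e-09). Other regions of IGFBPL1 (-0.92, SE 0.38, adjusted p 0.0365) and CCN6 (-0.59, SE 0.13, adjusted p 6.0e-05) were called lower. Among the called distal regions of mean signal 50 or more on the whole list, the largest fall was at IGF1R, at -1.06 (SE 0.13, adjusted p 1.8e-14), followed by CCN2 with -0.77 (SE 0.21, adjusted p 0.000866) and HTRA1 with -0.71 (SE 0.22, adjusted p 0.00432). The surface partners of the binding proteins, TMEM219, LRP1 and ITGB1, had 5 promoter and 13 distal regions, and ITGA5 had none. By DESeq2, 0 of these were called, and at an unadjusted p-value under 0.05, 1 promoter region was lower and 4 distal regions were higher and 2 lower. The promoter region, of LRP1 and also of STAT6, had -0.29 (SE 0.074, adjusted p 0.000475). The smallest adjusted p-value among the distal ones was 5.1e-05, at ITGB1 with -0.27 (SE 0.060).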

How the data were processed

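ATAC-seq libraries of EndoC-βH3 cells, 3 senescent and 3 non-senescent by the labels of the samples, were used. After trimming (Trim Galore), the authors mapped the read pairs to hg38 using Bowtie2, discarded mitochondrial and duplicate reads, applied the Tn5 offset, and counted reads in the union of MACS2 peaks. Tool versions are not given in the sources used here. The mean signal in the deposited table is the authors' mean of counts over size factors. The log2 fold change and its SE, the score (Wald statistic), and the p-value and adjusted p-value were taken as deposited from the authors' DESeq2 model, since individual libraries have no columns there (0 were used) and no new model could be fitted. The depth of each library is therefore unknown from the table. It was checked that the adjusted p-value is the Benjamini-Hochberg adjustment over all regions, and that 0 regions lay past a chromosome end of the hg38 reference. Whether fold changes were shrunken is not given in the sources used here. Starts were read as counted from 0 and are given from 1.

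Start sites were those of protein-coding transcripts in GENCODE 44, and the annotation of a region is that at its midpoint. Motifs were sought in 300 bp around midpoints with Python 3.11.15 and pysam. Members and lists were chosen with earlier results of these data known, and the insulin response core was added after the data were seen. All 8 genes are named, with every promoter region, the called distal regions and the strongest distal region, and of the list of the IGF system the called promoter regions and the 3 largest called distal changes in each direction at a mean signal of at least 50. Other regions and genes were named after their values were seen. Trends were running medians over 1000 regions on each side, and the p-values were then computed anew from the shifted fold change and its SE. The Wald tests recomputed from fold change and SE were checked on fold changes simulated with the deposited SE. The check does not cover the DESeq2 model behind the deposited p-values. Alternatives are listed in the closing section.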

Additional observations from a re-analysis of the deposited data

How the results depend on the processing

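No paired analysis was possible because individual libraries have no values in the table, and for the same reason no library could be left out and no other normalisation tried. With an adjusted p-value under 0.01, 0 member promoter regions and 1 distal region were lower. Without the fold limit, 1 promoter region was higher and 3 lower and 6 distal regions were lower; IGFBP1 (-0.43), IGFBP3 (0.32) and IGFBP6 (-0.58) then passed at their strongest promoter region. With a Wald test against a 1.5-fold change, 0 promoter regions were lower and 0 distal regions were higher or lower. With the trend on mean signal removed 5 distal regions were lower, and the strongest IGFBP5 promoter region changed sign to 0.094 (adjusted p 0.336). With the trend on GC content removed, or a mean signal of at least 50, 0 promoter regions were lower, and the latter left 1 distal region higher. A distal limit of 50 kb left 18 distal regions with 0 higher, and start sites of all gene types left 11 with 1 higher. Shares over all regions are given above only for the main call and for the adjusted p-value alone. Counts under the other settings, here and in the next paragraph, therefore cannot be read as particular to these genes.

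On the list of the IGF system, the counts without the fold limit were 7 higher and 10 lower promoter regions and 41 higher and 22 lower distal regions. With a Wald test against a 1.5-fold change they were 1 and 0, and 5 and 1. Higher promoter regions numbered 1 with centring on the median, 4 with the trend on GC content removed, 1 with windows of 1 or 0.5 kb, and 0 with canonical start sites. Higher distal regions numbered 9 within 50 kb, and lower ones 4 with start sites of all gene types.

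Signs changed at single uncalled regions. With the trend on mean signal removed these were the IGFBP2 region 6.92 kb before a start site (-0.10), the IGFBP7 region at 8.95 kb (-0.17) and the one at 74.4 kb (-0.074). With the trend on GC content removed they were the same 3 at -0.064, -0.060 and -0.077, and the weak IGFBP4 promoter region at 0.026. With centring the IGFBP7 region at 74.4 kb had -0.0071. The cause was not tested. Of 240 values of single regions under 6 alternatives, 206 kept their side of the threshold and their sign, most of them at uncalled regions. Of the 7 called regions, 2, both of IGFBP3, kept their call under 5 of these alternatives, and 0 did under the Wald test against a 1.5-fold change. Low signal limits the precision of the 13 member regions under a mean signal of 50.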
